A study of Mus musculus with 2 samples.

Results

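Ly6a, Ly6c1, Ly6c2, Ly6d and Ly6e are 5 genes of the lymphocyte antigen 6 family. They were followed here in single thymus cells of WT mice and of Cdc42 conditional knockout (KO) mice. They are 5 of the 20282 genes in the deposited count matrix, and they were selected on their levels and their KO to WT ratios in these data, so those values are given as a description. The WT library came from Cdc42f/f mice, whose Cdc42 alleles carry loxP sites but which have no Cre. The KO library came from Cdc42f/f CD4Cre littermates, in which Cre under the CD4 promoter acts from the stage at which thymocytes switch on Cd4, so earlier cells and non-T cells of the same thymus need not have lost Cdc42. Each library was 1 pool of 5 mice aged 6 weeks, so there was 1 sample a group, no replicate and no test between the genotypes.

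The WT library held 6115 cells and 29706197 unique molecular identifiers (UMIs, each standing for 1 captured mRNA molecule), with a median of 3192 UMIs a cell. The KO library held 7568 cells and 37920214 UMIs, with a median of 3401. A total of 17 cell barcodes occurred in both libraries. Levels are given as CPM, UMIs of a gene per 1000000 UMIs of the same cells, and every interval is an exact 95% interval that covers counting error only. Such an interval is too narrow where a few cells hold most UMIs of a gene, so the number of cells is given with each such level. Cdc42 itself was counted at 397 CPM in WT and 383 in KO in the Itm2a cluster, and at 447 and 581 in the Ms4a4b cluster. The 3′ reads of this assay do not check the deletion, because the exon that Cre removes is not at the 3′ end of the mRNA.

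Ly6 proteins are small cysteine-rich proteins held on the outer cell surface by a glycosylphosphatidylinositol (GPI) lipid anchor. Several are used as antigens that mark blood cell types: Ly6a encodes Sca-1, known from blood stem cells and activated lymphocytes, and Ly6c1 and Ly6c2 encode the Ly6C antigen of monocytes and of some T cells. Ly6d encodes ThB, found on thymocytes and B cells, and Ly6e encodes TSA-1, thymic shared antigen 1. In the thymus, CD4-CD8- double negative (DN) cells become CD4+CD8+ double positive (DP) cells and then CD4+ or CD8+ single positive (SP) cells, and several Ly6 antigens are known to change along this path.

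All 5 genes lie in 1 cluster on mouse chromosome 15. In GENCODE vM21 (GRCm38) Ly6d spans chr15:74762056-74763620, Ly6e chr15:74955051-74959905, Ly6a chr15:74994877-74998031, Ly6c1 chr15:75044018-75048830 and Ly6c2 chr15:75108158-75111970. Ly6e is on the plus strand and the other 4 genes are on the minus strand. Their proteins have 127 (Ly6d) to 136 (Ly6e) codons, of which 10 (Ly6e) to 12 (Ly6a, Ly6c1 and Ly6c2) encode cysteine. The 30 exonic bases below end at the only cysteine-asparagine pair of each protein, the hallmark with which the Ly6 fold closes, and show how the members resemble each other. They come from the first coding transcript of each gene, 5′ to 3′, and capitals mark the cysteine codons.
Ly6a: acttccTGTTGCcaggaagacctcTGCaat
Ly6c1: acttccTGTTGCagcgaagacctcTGCaat
Ly6c2: acttccTGTTGCagcgaagacctcTGCaat
Ly6d: acacaaTGCTGCcagactgacctaTGCaac
Ly6e: agctacTGCTGCcaaagctccttcTGCaac
Each stretch held 3 cysteine codons. The Ly6c1 and Ly6c2 stretches were identical, and the Ly6a, Ly6d and Ly6e stretches differed from them.

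Over the whole coding sequence, Ly6c1 and Ly6c2 were identical at 97.7% of aligned bases and Ly6a matched them at 81.8% and 81.6%, whereas identity among all other pairs was 45.6% to 49.6%. Ly6c1 and Ly6c2 differed at 9 of 393 coding bases, and 6 of these differences fell in the first 90. These 90 coding bases (codons 1 to 30, which an intron divides in the genome) are shown because these near-identical genes had different levels over the clusters. Capitals mark the bases that differ.
Ly6c1: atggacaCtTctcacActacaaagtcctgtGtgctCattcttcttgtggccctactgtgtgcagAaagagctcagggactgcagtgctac
Ly6c2: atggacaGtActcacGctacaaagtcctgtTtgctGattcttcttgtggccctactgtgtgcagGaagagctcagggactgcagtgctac
The assay reads the 3′ end of an mRNA, where the genes are less alike: identity over the last 300 bases of the transcripts was 93.5%. Of 410 windows of 91 bases in the last 500 bases of Ly6c1, 34 (8.29%) also occurred in Ly6c2 and in no other gene, and none of the windows of Ly6a, Ly6d or Ly6e occurred elsewhere. A small part of Ly6c1 and Ly6c2 reads could therefore not be assigned to 1 gene, and values of these 2 genes carry that uncertainty.

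The RefSeq promoter table (GRCm38.p6) held windows for 2 of the 5 genes, Ly6c1 at chr15:75048788-75049087 and Ly6c2 at chr15:75111922-75112221, both on the minus strand and from 250 bases before to 50 after the start of the gene. They are shown because the levels of Ly6c1 and Ly6c2 differed in their pattern over the clusters. Capitals mark matches to any of 4 motifs searched on both strands: GAAA followed after any 2 bases by GAAA (the core of the interferon-stimulated response element), TTCNNNGAA (the gamma-activated site), TGTGGT (the RUNX core) and TATAAA (the TATA box).
Ly6c1: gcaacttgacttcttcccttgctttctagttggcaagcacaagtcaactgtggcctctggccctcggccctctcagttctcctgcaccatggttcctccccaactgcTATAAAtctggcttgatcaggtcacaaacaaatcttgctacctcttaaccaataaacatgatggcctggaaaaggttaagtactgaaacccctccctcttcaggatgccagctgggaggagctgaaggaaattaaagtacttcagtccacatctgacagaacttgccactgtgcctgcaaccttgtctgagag
Ly6c2: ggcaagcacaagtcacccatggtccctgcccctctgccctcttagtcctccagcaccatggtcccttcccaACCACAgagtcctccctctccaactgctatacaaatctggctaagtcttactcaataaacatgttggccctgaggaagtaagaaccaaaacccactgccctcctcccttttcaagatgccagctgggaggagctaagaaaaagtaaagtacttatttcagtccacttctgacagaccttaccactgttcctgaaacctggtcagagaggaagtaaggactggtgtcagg
These windows were identical at 62.3% of aligned bases. Ly6c1 held 1 match to TATAAA, 143 bases before the start, and Ly6c2 held 1 match to TGTGGT on the opposite strand, 179 bases before it. Of 32851 promoter windows of this length, 13.6% held TATAAA and 16.8% held TGTGGT. Neither window held the interferon-stimulated core or TTCNNNGAA, which occurred in 3.44% and 8.30% of all windows.

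The deposited clusters are called here by their leading genes. Clusters 0 to 4 had over 2000 CPM of Rag1 (which cuts antigen receptor genes in DP cells), clusters 5 and 9 over 1000 CPM of Cd5 (raised after receptor signalling), cluster 6 the highest Itm2a and cluster 7 the highest Ms4a4b over both libraries, genes of newly formed and of mature SP cells. Clusters 10 to 13 held dividing cells by Top2a and Cenpf, cluster 14 had the highest Myl10 and cluster 15 the highest Cd74, with both the B cell gene Cd79a and the plasmacytoid dendritic cell gene Siglech. Cluster 8 (highest Lars2) and the small clusters 17 and 18 were not named. Clusters 17 and 18 also had Top2a (1094 and 1952 CPM over both libraries) and Cenpf (308 and 533), and cluster 18 had Ms4a4b at 1409. They were not counted with the dividing clusters. All 19 clusters were computed by the authors from the expression of these same cells, so a difference between clusters is no test.

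**Figure D1:**
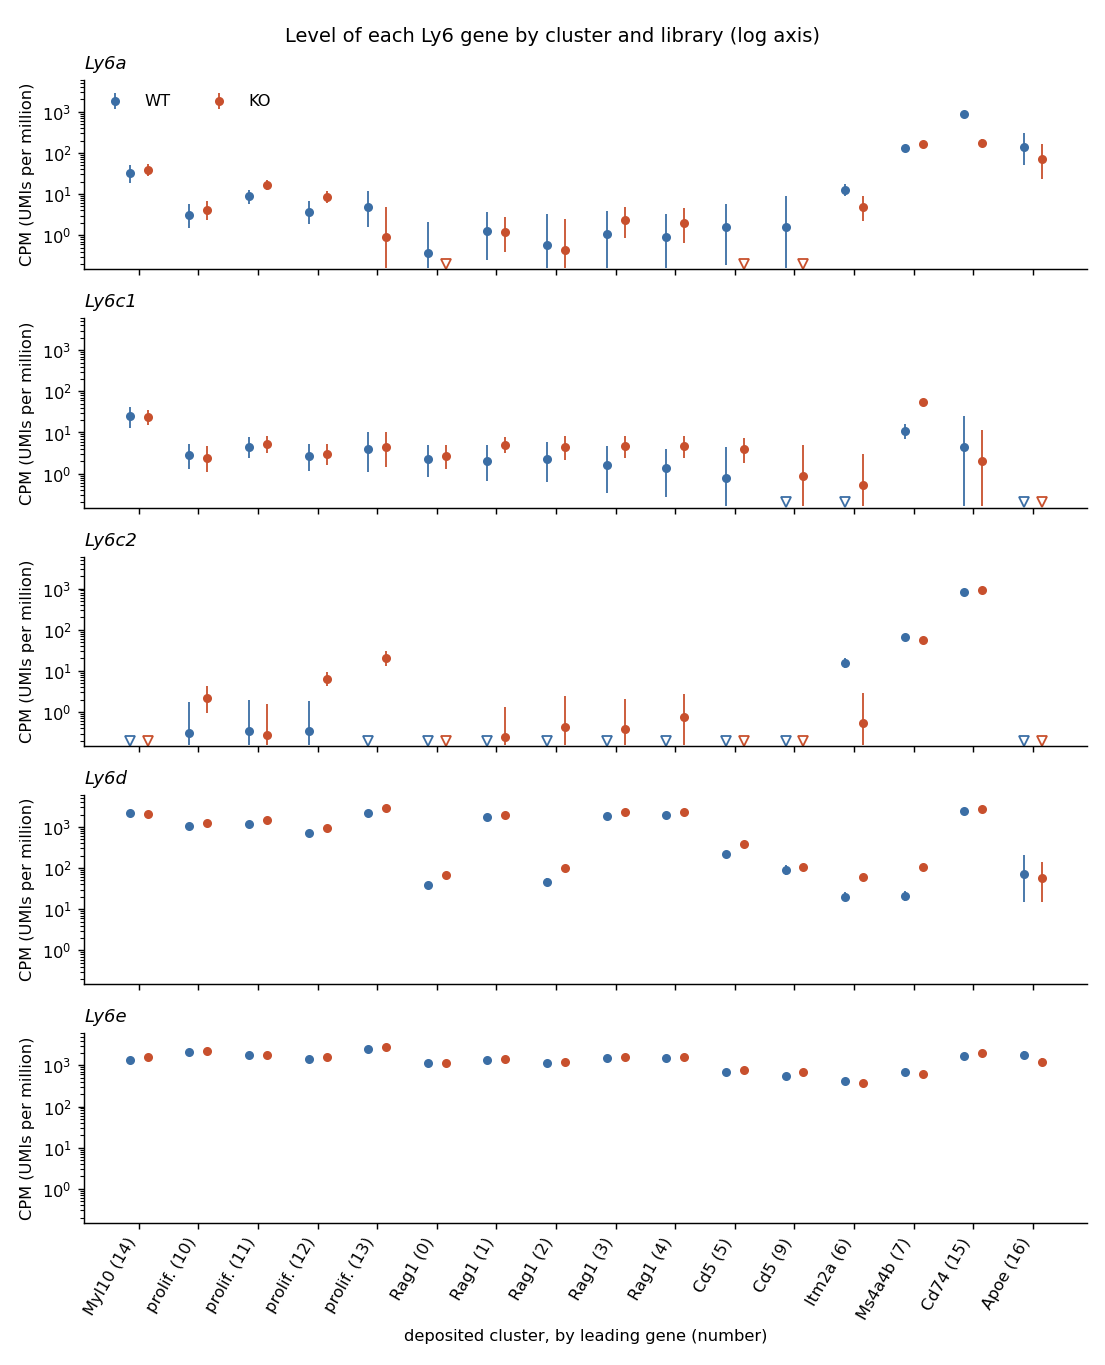
CPM (log axis) of each gene in 16 deposited clusters, ordered from Myl10 cells through dividing, Rag1, Cd5 and SP clusters to Cd74 and Apoe cells. Points are the 2 libraries, bars are exact 95% Poisson intervals, and open triangles at the foot of a panel mark a count of 0; Ly6e is found throughout and Ly6d divides the Rag1 clusters into 2 low and 3 high ones.

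Ly6d was among the genes that divided the Rag1 clusters, as was Trbc1 (described below). In clusters 0 and 2 it stood at 38.0 and 45.7 CPM in WT and at 67.9 and 100.3 in KO. In clusters 1, 3 and 4 it stood at 1792, 1887 and 1986 in WT and at 1959, 2294 and 2254 in KO. The share of cells with a Ly6d UMI was 8.33% to 8.77% in the first pair and 78.5% to 98.0% in the other 3 clusters in WT, and 14.5% to 19.0% against 83.6% to 97.7% in KO. Clusters 0 and 2 are called low and clusters 1, 3 and 4 high by these same Ly6d values, so the gap between them is no test.

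Between clusters 0 and 1, Ly6d differed by 5.55 on the log2 scale in WT (interval 5.27 to 5.86) and by 4.85 in KO (4.67 to 5.04). Of 6146 genes with at least 100 UMIs in the 2 clusters, 2 (0.0325%) differed by 2-fold in WT, Ly6d and Atad5, the latter by 1.04. In KO 4 of 7457 genes (0.0536%) did, and the next after Ly6d was Angpt1 at 1.52. Clusters 2 and 3 differed in the same way, by 5.36 in WT and 4.51 in KO for Ly6d, although 22 of 5051 and 11 of 6064 genes passed 2-fold there. The low clusters 0 and 2 differed from each other in 1 gene past 2-fold in each library, Trbc1 (one of the 2 constant regions of the T cell receptor beta chain), at 6107 and 49.2 CPM in WT.

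Over all cells of the 5 Rag1 clusters, without using the split between them, Ly6d was uneven from cell to cell. In WT 47.8% of 3636 cells had no Ly6d UMI, 15.6% had 1 or 2, 36.6% had 3 or more and 12% had 10 or more. In KO 40.9% of 4641 cells had none and 16% had 10 or more. The variance of the count was 8.98 times its mean in WT and 10.0 times in KO, against 2.31 and 2.44 times for Ly6e in the same cells. After thinning each cell to 1000 UMIs, the expected share of cells with a Ly6d UMI was 39.8% in WT and 44.7% in KO. Ly6d was found in 54.7% of WT cells with a Trbc1 UMI and in 46.4% of those without, at median depths of 2854.5 and 2763 UMIs. In KO these shares were 60.1% and 56.4%. Ly6d was therefore found in cells with and without a Trbc1 UMI, and the other constant region was not counted.

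The low and the high clusters took similar shares of the Rag1 cells in both libraries. Clusters 0 and 2 held 46.2% of them in WT (exact binomial interval 44.6% to 47.9%) and 44.7% in KO (43.2% to 46.1%). Ly6e, which did not define the split, stood at 1145 CPM in the low clusters and 1456 in the high clusters in WT, and at 1177 and 1523 in KO. Ly6a and Ly6c2 were at or under 1.71 CPM on both sides in both libraries, and Ly6c1 between 1.69 and 4.82.

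**Figure D2:**
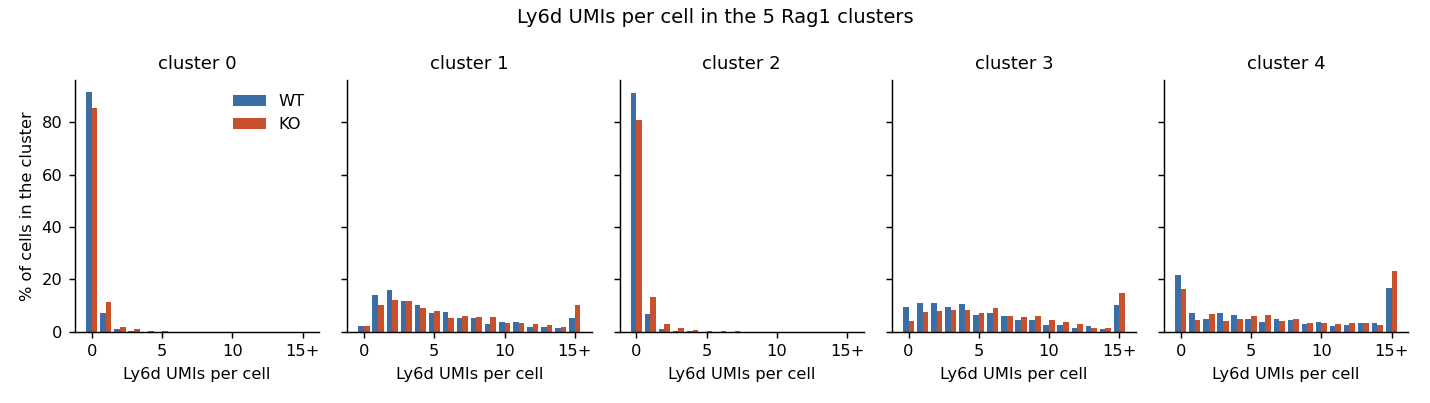
Share of cells (%, bars from 0) by number of Ly6d UMIs in each of the 5 Rag1 clusters, for the WT and KO libraries; the last bar of each panel holds cells with 15 or more. Clusters 0 and 2 are almost all at 0 or 1 UMI, whereas clusters 1, 3 and 4 reach up to 61 UMIs in a cell.

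Outside the Rag1 cells, Ly6d was high in early cells and low in SP cells. It reached 2130 CPM in WT and 2096 in KO in the Myl10 cluster and 732 to 2131 (WT) and 927 to 2819 (KO) in the 4 dividing clusters. It was at 222 and 91.5 in the 2 Cd5 clusters in WT and at 387 and 104 in KO. The lowest WT levels were in the Itm2a and Ms4a4b clusters, at 20.3 and 21.5, and these neighbours in the order did not differ beyond their intervals (15.6 to 26.0 and 15.9 to 28.3). In the Apoe cluster, led by a gene of macrophages, which should lack Ly6d, 10% of 30 WT cells and 6.12% of 49 KO cells had a Ly6d UMI at median depths of 875 and 695 UMIs. The WT shares in the Itm2a and Ms4a4b clusters were 6.47% and 8.43%, at median depths of 5714 and 6737.5. The Apoe share of WT rests on 30 cells of lower depth, with an exact interval of 2.11% to 26.5%. A comparison with it cannot decide whether the Itm2a and Ms4a4b shares are higher. The Ly6d UMIs of the SP clusters were not spread evenly: 6 WT cells of the Itm2a cluster held 58.1% of its Ly6d UMIs and 4 WT cells of the Ms4a4b cluster held 50%. The highest WT level, 2505, was in the Cd74 cluster, and the next 5 in the order (clusters 13, 14, 4, 3 and 1) each overlapped their neighbour.

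Ly6e was detected in every cluster of both libraries. It stood at 1139 to 1517 CPM in the Rag1 clusters of WT, at 1463 to 2555 in the dividing clusters, and at 677 and 543 in the Cd5 clusters. It was at 411 in the Itm2a cluster and at 683 in the Ms4a4b cluster of WT, so that it was lower in SP cells than in Rag1 cells but higher in the mature than in the newly formed ones, with intervals apart (388 to 434 and 650 to 717). KO followed the same order, at 383 and 619.

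Ly6a, Ly6c1 and Ly6c2 were close to 0 in Rag1 cells and appeared in the Ms4a4b cluster. Over the Rag1 clusters Ly6a had 9 UMIs in 3636 WT cells and 17 in 4641 KO cells, and Ly6c2 had 0 and 5. For the count of 0 in WT the exact upper limit was 0.339 CPM. In the Ms4a4b cluster of WT, Ly6a reached 130 CPM (115 to 145) in 84 of 332 cells, Ly6c2 67.0 (56.9 to 78.4) in 33 cells and Ly6c1 10.7 (6.95 to 15.9) in 13 cells. The share of cells with a UMI, 25.3% for Ly6a and 9.94% for Ly6c2, was well over the 0.248% and 0% of Rag1 cells, at median depths of 6737.5 and 2823 UMIs. After thinning to 1000 UMIs the shares were 8.39% and 3.43%. The Ly6c2 UMIs lay in few cells with many each, up to 19 in 1 WT cell.

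Ly6c1 was also present in the Myl10 cluster, at 24.5 CPM in WT and 24.2 in KO. Ly6c2 had no UMI there in either library. This cluster also had Ly6a, at 32.1 and 39.4. The genes whose levels ran most alike with each member over the 19 WT clusters, by Pearson r of log2(CPM + 10) among 10377 genes with at least 100 UMIs, were different for each. They are a description over clusters that share 1 library, with the r over KO clusters beside them. For Ly6a they were Ncf4 (r 0.96, 0.74 in KO), S100a4 (0.95, 0.83) and Phf11b (0.95, 0.91). For Ly6c1 they were Gm12216 (0.90, 0.56) and the gamma chain genes Trgv2 (0.87, 0.53) and Trgc4 (0.85, 0.50). For Ly6c2 they were Rgs1 (0.97, 0.77), Bcl2a1d (0.95, 0.80) and Jaml (0.95, 0.62). Ly6d ran with Anxa2 (0.78, 0.55), Cmtm7 (0.76, 0.77) and Mospd3 (0.76, 0.69), and Ly6e with D5Ertd605e (0.80, 0.50), Borcs5 (0.80, 0.41) and Commd9 (0.79, 0.31). Between members, r in WT was 0.84 for Ly6a and Ly6c2 and 0.64 for Ly6d and Ly6e, but 0.22 for Ly6c1 and Ly6c2.

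The comparison of KO with WT asked how the members stood in the KO library beside the WT library, without a check of the deletion in each cell. Ratios are given for all UMIs of a cluster or group of clusters, as log2 of KO over WT after adding 0.5 to each sum. A gene was counted as past the fold when the ratio was 1.5-fold or more either way, among genes with at least 20 UMIs over both libraries.

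In the Ms4a4b cluster 2 of the 5 members were past 1.5-fold, Ly6c1 and Ly6d, both higher in KO, while 26.5% of all 9586 genes tested were past it. Ly6c1 had 25 UMIs in 13 of 332 WT cells and 127 UMIs in 75 of 396 KO cells, that is 10.7 and 56.0 CPM, a log2 ratio of 2.36 (1.76 to 3.06). The share of cells with a Ly6c1 UMI was 3.92% (2.10% to 6.60%) in WT and 18.9% (15.2% to 23.1%) in KO, although KO cells of this cluster were shallower (median 5032 against 6737.5 UMIs). After thinning it was 1.06% and 6.21%. No KO cell had more than 5 Ly6c1 UMIs, so the higher level was spread over many cells.

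Ly6d stood at 21.5 CPM (50 UMIs in 28 cells) in WT and at 108.5 (246 UMIs in 61 cells) in KO, a log2 ratio of 2.33 (1.89 to 2.81). Few cells held most of it: 30 KO cells with 3 or more Ly6d UMIs held 85.0% of the UMIs, and 4 such WT cells held 50%. Of these cells, 27 of 30 in KO and 4 of 4 in WT also had a Rag1 UMI. Rag1 was at 184 CPM in this cluster in KO and 88.9 in WT, and 11.1% of its KO cells and 5.12% of its WT cells were among the 6% of their library with the highest Scrublet doublet scores. Without the cells with a Rag1 UMI the ratio was 1.64, and without those of highest Scrublet score 1.67. A list of 7 resting DP genes, put together with earlier results of these data known, stood at 1291 CPM in KO and 918 in WT. Of the 7, 5 were past 1.5-fold higher and none lower, where 26.5% of all 9586 genes were past it either way. The list holds Cd4 and Cd8b1, which SP cells can also express. The part of DP cells or doublets in the Ly6d level was not tested.

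Ly6a, Ly6c2 and Ly6e stayed within 1.5-fold in the Ms4a4b cluster. Ly6a was at 130 in WT and 167 in KO (log2 0.36, 0.14 to 0.59), where the median of all genes was 0.24. Ly6e was at 683 and 619 (log2 -0.14, -0.25 to -0.04). Ly6c2 was at 67.0 and 55.1 (log2 -0.28, -0.63 to 0.07), but its UMIs lay in 33 WT cells and only 8 KO cells. As a share of cells this was 9.94% (6.94% to 13.7%) in WT and 2.02% (0.876% to 3.94%) in KO, and after thinning 3.43% and 1.31%. The KO cells with Ly6c2 held up to 34 UMIs each, so the summed level and the share of cells gave different pictures. As a mean over cells and after thinning, the log2 ratio was -0.65 in either case, past 1.5-fold.

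**Figure D3:**
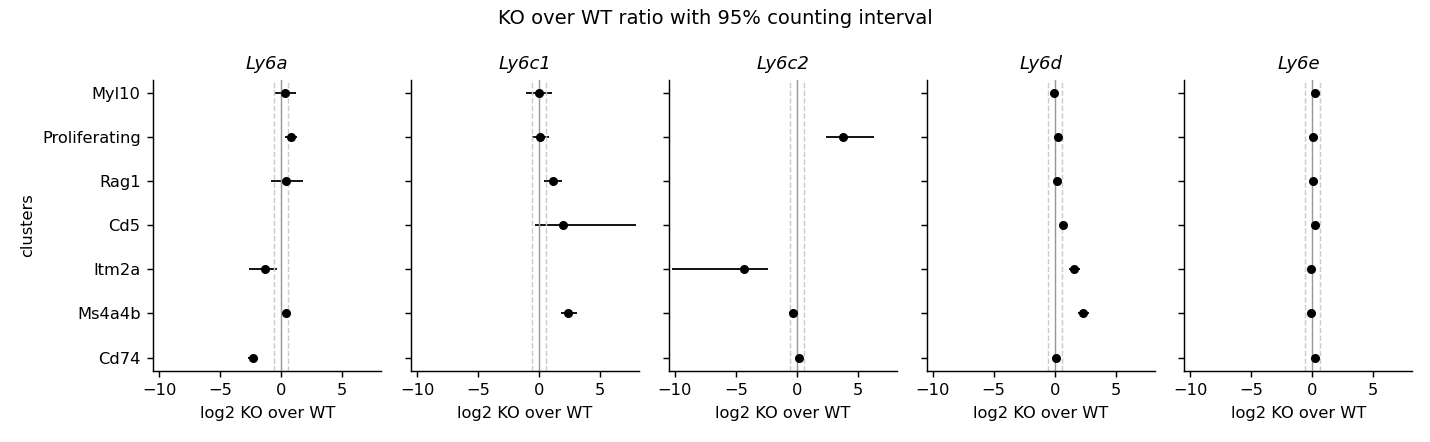
Log2 ratio of KO over WT (x axis) for each gene in 7 clusters or groups of clusters, with the exact 95% interval for counting error; dashed lines mark 1.5-fold. Ly6e lies near 0 in every row, Ly6d lies furthest right in the Itm2a and Ms4a4b clusters, and Ly6c1 at 2.36 in the Ms4a4b cluster; no point is drawn where both libraries had 3 UMIs or fewer or either had 0.

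In the Itm2a cluster 3 of 4 members tested were past 1.5-fold, 1 higher and 2 lower, against 16.3% of 9790 genes. Ly6d was higher in KO, at 61.6 CPM (116 UMIs in 33 of 316 cells) against 20.3 (62 UMIs in 31 of 479 cells), a log2 ratio of 1.60 (1.14 to 2.07). With the deposited clusterings at resolution 1.8 or 2, in which the cluster of highest Itm2a held 173 WT and 186 KO cells, the ratio was 0.56. Ly6a was lower, at 4.78 in KO (9 UMIs in 3 cells) against 12.8 in WT (39 UMIs in 17 cells), a log2 ratio of -1.36 (-2.65 to -0.35). Without cells with a gamma or delta chain UMI it was -0.32. Ly6c2 had 48 UMIs in WT and 1 in KO (log2 -4.32, -10.2 to -2.34), and 45 of the 48 were in 1 WT cell that also had a gamma or delta chain UMI and no Cd4, Cd8a or Cd8b1 UMI. Without that cell both libraries had 3 UMIs or fewer, so the Ly6c2 difference in this cluster rests on it. Ly6c1 had 0 UMIs in WT and 1 in KO, and Ly6e was within 1.5-fold, at 411 and 383.

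Among the Rag1, Cd5, dividing and Myl10 clusters, Ly6c1, Ly6d, Ly6a and Ly6c2 each passed the fold in 1 group. Ly6d also passed it in cluster 8, which was not named, at 135 CPM in WT and 256 in KO (log2 0.91, 0.40 to 1.48). In the Rag1 clusters 1 of 4 members tested was past 1.5-fold, against 8.37% of 12983 genes: Ly6c1, at 1.93 CPM in WT (21 UMIs in 19 cells) and 4.23 in KO (65 UMIs in 51 cells), log2 1.11 (0.40 to 1.91). Ly6d had a log2 ratio of 0.21 (0.18 to 0.25) there, with KO above WT in each of the 5 clusters. In the Cd5 clusters 1 of 2 members tested was past it, against 10.6% of 9854 genes: Ly6d, at 180 and 293 CPM (log2 0.71, 0.53 to 0.89). That ratio was within 1.5-fold with the clusterings at resolution 1.8 (0.54) and 2 (0.56). In the dividing clusters 2 of 5 were, against 8.52% of 12365 genes. These were Ly6a, at 5.10 and 8.95 (log2 0.80, 0.32 to 1.32), and Ly6c2, with 3 UMIs in WT and 60 in KO (log2 3.76, 2.36 to 6.29), 28 of which came from 1 cell and 21 from another. In the Myl10 cluster, where Cre under the CD4 promoter need not have acted, 0 of 4 were past it, against 18.6% of 7382 genes.

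SP cells were also ordered by a score of maturation, the mean log level of 13 late genes less that of 10 early genes, with no Ly6 gene in either list, and cut into 5 bins over all cells of the Itm2a and Ms4a4b clusters. Ly6a was higher in the later bins of both libraries, at 2.31 CPM in the first bin and 68.5, 107 and 131 in the last 3 bins of WT, and at 0 in the first bin and 103, 173 and 185 in those of KO. Ly6c1 was at 5.71 in the third bin of KO and at 45.9 and 87.3 in the last 2, whereas the same bins of WT had 2.80, 9.80 and 4.37. In the last bin this was 3 UMIs in 102 WT cells and 85 in 203 KO cells, a log2 ratio of 4.10 (2.72 to 6.62).

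Ly6c2 went the other way in the last bin, with 33 UMIs in 102 WT cells and 0 UMIs in 203 KO cells. This was 15.6-fold lower when 3 UMIs are set for 0, a value without an interval that leaves out the counting error of WT. Of the 33 WT UMIs, 57.6% came from 1 cell. In the fourth bin it was at 86.7 CPM in WT and 91.9 in KO, from 19 and 4 cells with a UMI. In the third bin KO was higher, at 75.6 against 38.5 (log2 0.98, 0.40 to 1.55), from 3 KO cells and 8 WT cells with a UMI. Ly6d was highest in the middle bin of both libraries, at 32.2 (23.6 to 42.9) in WT and 177 (147 to 211) in KO. In WT this overlapped the first 2 bins, at 21.9 (13.2 to 34.2) and 23.3 (15.1 to 34.5). In the last bin Ly6d was at 8.75 in WT and 14.4 in KO, a log2 ratio of 0.65 (-0.75 to 2.38). In the first 4 bins its ratio was between 1.51 and 3.07. Ly6e ratios were between -0.06 and 0.15 in all 5 bins, and every interval included 0. With WT cells weighted to the KO spread of scores, the log2 ratio over both SP clusters was 0.37 for Ly6a, 2.73 for Ly6c1 and 2.29 for Ly6d, against 0.56, 2.71 and 2.06 without weights.

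**Figure D4:**
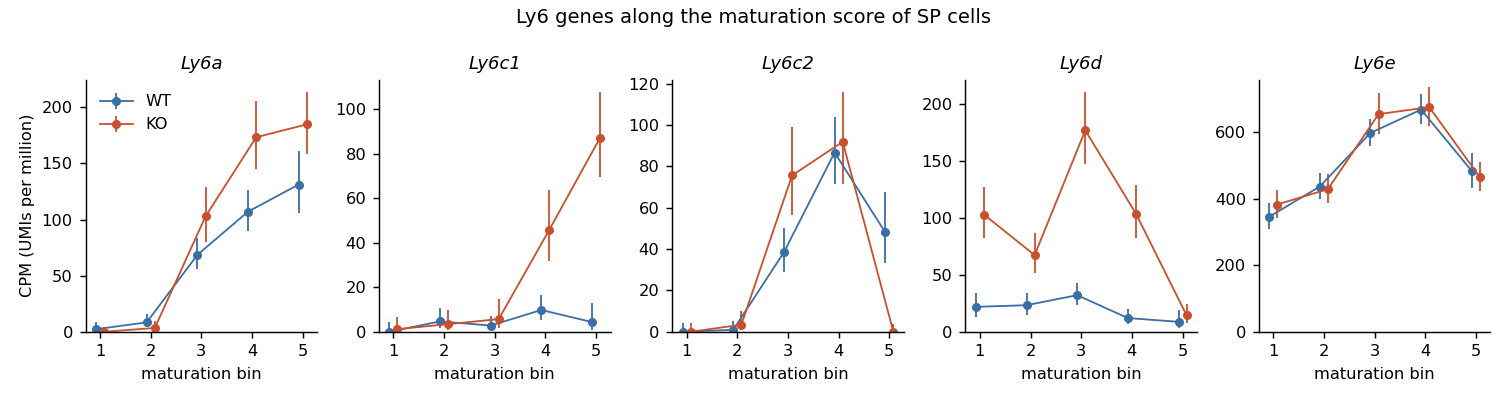
CPM (y axis from 0, a scale of its own for each gene) in 5 bins of the maturation score over SP cells, WT and KO, with exact 95% Poisson intervals. Ly6a is higher in later bins of both libraries, Ly6c1 reaches 87.3 in the last KO bin against 4.37 in WT, Ly6c2 is at 0 in the last KO bin and Ly6d is highest in the middle bin of KO at 177.

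The Ms4a4b cluster was then divided by coreceptor UMIs, into cells with Cd4 only, with Cd8a or Cd8b1 only, with both, and with neither. In WT, Ly6a was higher in Cd4-only cells (193 CPM, in 27 of 76 cells) than in Cd8-only cells (46.5, in 18 of 106), 4.12-fold, with a log2 ratio of Cd8-only over Cd4-only of -2.04 (-2.63 to -1.50). In KO this was -0.63 (-1.17 to -0.10), at 158 and 102. Between the libraries, Ly6a in Cd8-only cells had a log2 ratio of 1.12 (0.51 to 1.77) and in Cd4-only cells of -0.29 (-0.76 to 0.17). The intervals of these 2 ratios did not overlap, but they cover counting error only and are too narrow here. The variance of the Ly6a count over cells of this cluster was 9.48 times its mean in WT and 4.72 times in KO. The difference between the 2 ratios was not tested and has no replicate check.

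Ly6c2 had the opposite preference in WT, at 86.8 CPM in Cd8-only cells (71 UMIs in 17 of 106 cells) and 24.1 in Cd4-only cells (12 UMIs in 4 of 76), a 3.48-fold difference (log2 interval 0.96 to 2.87). In KO, 2 of 97 Cd8-only cells had Ly6c2 and none of 90 Cd4-only cells did, where 3 UMIs would stand at 6.86 CPM. In cells with both coreceptors it was at 5.70 in WT and 67.1 in KO, where 2 of 118 cells held all 52 UMIs.

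Ly6c1 was higher in KO in all 4 coreceptor classes, with log2 ratios from 2.05 (cells with neither) to 2.69 (Cd8-only cells). The lowest lower bound of the 4 intervals was 0.93. Among cells with neither coreceptor, those without a gamma or delta chain UMI had 3 Ly6c1 UMIs in 57 WT cells and 39 in 69 KO cells, at 10.3 and 123 CPM. Those with such a UMI had 6 and 2, in 22 cells of each library. The marker Trdc, the delta chain constant region, stood at 92.8 CPM in the Ms4a4b cluster of WT and 206 in that of KO. The Ly6c1 ratio without any cell with a gamma or delta chain UMI was 2.69 (2.01 to 3.50). In all cells of the cluster with such a UMI it was 0.40 (-1.22 to 2.21), from 6 UMIs in WT and 9 in KO. A cell without such a UMI was not shown to lack these chains, and the part of gamma-delta cells was not tested.

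Ly6d in the Ms4a4b cluster of KO lay mostly in cells with Cd8 UMIs. In KO it was at 226 CPM in cells with both coreceptors (175 UMIs in 39 of 118 cells) and at 109 in Cd8-only cells (59 UMIs in 11 of 97), but at 11.4 in Cd4-only cells and 13.6 in cells with neither. In WT these 4 levels were 62.7, 11, 10.04 and 6.17. The Cd4-only cells of both libraries therefore differed by less than counting error (log2 0.19, -1.93 to 2.31). Ly6e was flat by comparison, between 432 and 816 in all classes of both libraries.

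**Figure D5:**
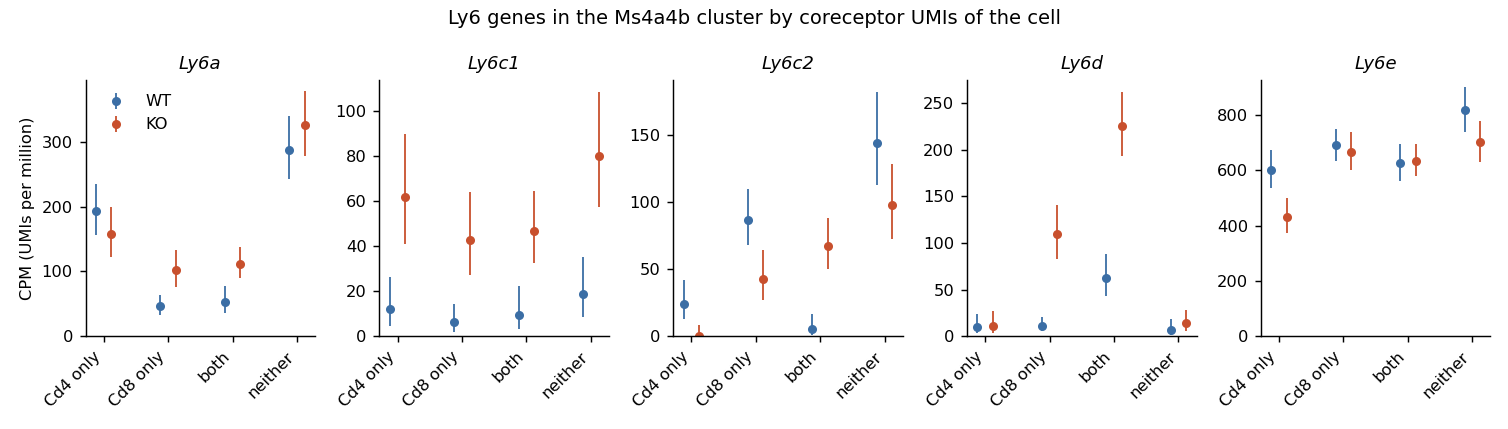
CPM (y axis from 0, a scale of its own for each gene) in the Ms4a4b cluster by the coreceptor UMIs of the cell, WT and KO, with exact 95% Poisson intervals. Ly6c1 is higher in KO in all 4 classes, Ly6d is highest in KO cells with both coreceptors at 226, and Ly6a of WT is higher in Cd4-only than in Cd8-only cells.

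Within the Ms4a4b cluster, Ly6c1 was found in a larger share of the cells with Ly6a than of those without. In KO 42 of 125 cells with Ly6a had Ly6c1 (33.6%, 25.4% to 42.6%), against 12.2% (8.53% to 16.7%) of cells without Ly6a, at median depths of 5249 and 4985 UMIs. In WT 7 of 84 cells with Ly6a had Ly6c1 (8.33%, 3.42% to 16.4%), against 2.42% (0.893% to 5.19%) of the others. These WT intervals overlapped, and median depths were 7327.5 and 6650.5 UMIs. Ly6c2 was found in 17 of these 84 WT cells (20.2%, 12.3% to 30.4%), against 6.45% (3.73% to 10.3%) of the others. In KO the cells with Ly6a showed no such excess of Ly6c2, at 2 of 125 (1.60%, 0.194% to 5.66%) against 2.21% (0.817% to 4.76%). No cell of either library had UMIs of both Ly6c1 and Ly6c2, out of 13 WT and 75 KO cells with Ly6c1. That allows a share of up to 24.7% and 4.80% of them by the exact binomial interval, and Ly6c2 was found in 10.3% and 2.49% of the cells without Ly6c1, so these counts do not show that the genes avoid each other. The gene Foxp3, the master factor of regulatory T cells, had a UMI in 20 WT cells and no KO cell of this cluster. Ly6a was at 144 CPM in these 20 cells and 129 in the other WT cells, and Ly6c2 was at 0 in them.

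The Cd74 cluster had the highest WT levels of Ly6a, Ly6c2 and Ly6d, and 1 of its 4 members tested was past 1.5-fold between the libraries, against 37.1% of 4763 genes. Ly6a stood at 864 CPM in WT and 174 in KO (log2 -2.30, -2.69 to -1.93), in 19 of 63 and 14 of 87 cells. Its cell makeup differed between the libraries: the B cell list stood at 4128 CPM in WT and 41164 in KO, the dendritic cell list at 26155 and 17665, and the median depth was 1202 and 4284 UMIs. Only 10 WT cells but 48 KO cells had a Cd79a or Cd79b UMI and no Siglech UMI. In these cells Ly6d was found in 8 of 10 and 48 of 48, and Ly6a in 8 of 10 and 9 of 48. Cells with a Siglech UMI and neither Cd79a nor Cd79b also held Ly6d, in 2 of 2 WT cells and 8 of 8 KO cells. This division by Cd79a, Cd79b and Siglech was chosen after the values had been seen. Ly6c2 stood at 814 in WT and 922 in KO, but 419 of its 455 KO UMIs came from 1 cell. The part of the cell makeup in these ratios was not tested.

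Other genes of the Ly6 family and of the pathway were read beside the members, from lists put together by family or function with earlier results of these data known. Of 38 other Ly6 family genes, 13 were in the matrix and 4 had at least 20 UMIs in the Ms4a4b cluster, of which 2 were past 1.5-fold higher and 1 lower in KO, where 26.5% of all genes were past it. They were Plaur, Lynx1 and Lypd6b, with Ly6k within the fold. Ly6k was at 17.2 CPM in WT and 17.6 in KO, and Plaur (the urokinase receptor) at 4.72 and 11.5 (log2 1.24, 0.21 to 2.44). In the Rag1 clusters Ly6k was at 41.1 in WT and 63.8 in KO (log2 0.63, 0.47 to 0.80), a ratio past 1.5-fold.

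Of 27 tested genes for synthesis and transfer of the GPI anchor, 5 were past 1.5-fold higher and 1 lower in the Ms4a4b cluster, with a median log2 ratio of 0.04 against 0.24 for all genes. Over all genes of this cluster, 21.0% were past it higher and 5.55% lower, so the count was near that background. Dpm1, the catalytic subunit of dolichol-phosphate mannose synthase, was at 36.5 and 56.9 CPM (log2 0.64, 0.23 to 1.05), and its partners Dpm2 and Dpm3 were within the fold at 0.47 and 0.23. Of 11 tested genes for other GPI-anchored surface proteins, 1 was past it higher and 4 lower, with a median of -0.29, beside the same 21.0% and 5.55% of all genes. The higher gene was Cd55, a complement inhibitor, at 9.45 and 32.2 CPM (log2 1.75, 1.06 to 2.53). Lower were Izumo1r (folate receptor 4), at 137 and 32.6 (log2 -2.06, -2.45 to -1.70), and Art2b, at 27.5 and 2.65 (log2 -3.27, -4.87 to -2.18). Cd52 and Thy1, the GPI-anchored genes with most UMIs, were at -0.29 and 0.31.

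Interferon-induced genes were read because Ly6a, Ly6c2 and Ly6e are known to respond to interferons. Of 46 such genes tested in the Ms4a4b cluster, 0 were past 1.5-fold higher and 23 lower in KO, with a median log2 ratio of -0.56, where 21.0% of all genes were past it higher and 5.55% lower. Ifi27l2a was at 2172 CPM in WT and 1051 in KO (log2 -1.05, -1.12 to -0.98) and Isg15 at 365 and 137 (log2 -1.41, -1.61 to -1.22). In the Itm2a cluster 0 of 41 were past it higher and 27 lower, with a median of -0.83. In the Rag1 clusters 17 of 38 were past it higher and 0 lower, with a median of 0.55, where 5.80% of all genes were past it higher. Beside the list, Ly6a had log2 ratios of 0.36, -1.36 and 0.38 and Ly6e of -0.14, -0.10 and 0.06 in the Ms4a4b, Itm2a and Rag1 clusters. Ly6c2 had -0.28 in the Ms4a4b cluster (-0.65 after thinning) and -4.32 in the Itm2a cluster, where 1 cell held 45 of 48 WT UMIs, and in the Rag1 clusters it had 0 UMIs in WT and 5 in KO. As reported, the ratios past 1.5-fold among these were those of Ly6a and Ly6c2 in the Itm2a cluster.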

How the data were processed

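Single-cell RNA-seq was made from thymus with the 10x Chromium 3′ kit, 1 pooled library a genotype. Per the submitters' processing notes and the study's methods, Cell Ranger 3.0.2, STAR and Seurat with mm10 were used, and cells with under 200 or over 6000 genes or over 50000 reads were removed. The authors deposited raw UMI counts per gene and cell, with cluster numbers, of which those at resolution 1.5 were used here. Members and gene lists were chosen with earlier results of these data known.

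Counts were summed over the cells of a cluster and library and divided by all UMIs. Intervals are exact at 95% (Poisson for levels, Clopper-Pearson for shares, conditional binomial for ratios). They cover counting error only, and with 1 library a group no test between genotypes was made. A sum of 0 was set to 3 UMIs, which gives a value without an interval, and no ratio was given where both sums were at or under 3. Genes were named by membership of the family, by the rule for likeness (the 3 highest r for each member) and from the fixed lists. Thinned shares are expected values at 1000 UMIs a cell, and cells with fewer (236 in WT, 220 in KO) were left out of them. Scrublet's own threshold called 2 and 0 cells, so the 6% of each library with the highest scores were left out as an alternative, and doublets were otherwise kept. The ratio procedure was tested on simulated data. Alternatives were other scalings (edgeR 4.0.16 TMM and DESeq2 1.42.0 size factors, used only for scaling), other clusterings, thinning, means over cells and cells left out. Software was numpy 2.4.6, scipy 1.17.1, pandas 2.3.3, scanpy 1.11.5 and R 4.3.3. Gene positions and transcripts came from GENCODE vM21, and promoters from RefSeq.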

Additional observations from a re-analysis of the deposited data

Results flagged for a closer look

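Among the Rag1, Cd5, Itm2a and Ms4a4b clusters, intervals of the KO over WT ratio lay on opposite sides of 0 for 2 members, Ly6a and Ly6e. With the dividing clusters Ly6c2 did so too, at 3.76 (2.36 to 6.29) there and -4.32 (-10.2 to -2.34) in the Itm2a cluster. Few cells held most of these Ly6c2 UMIs. In the dividing and Cd74 clusters Ly6a stood at 0.80 (0.32 to 1.32) and -2.30 (-2.69 to -1.93). Ly6a had a log2 ratio of 0.362 in the Ms4a4b cluster and of -1.36 in the Itm2a cluster. The latter was -0.19 after thinning, -0.34 as a mean over cells and -0.32 without cells with a gamma or delta chain UMI, and 1 cell held 15 of the 39 WT UMIs and another 7 of the 9 KO UMIs. Ly6e had 0.237 in the Cd5 clusters and -0.143 in the Ms4a4b cluster, both within 1.5-fold. With 1 library a genotype, the difference between stages was not tested.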

How the results depend on the processing

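Alternatives were run for the Rag1, Cd5, Itm2a and Ms4a4b clusters and for both SP clusters together, and not for the Myl10, dividing and Cd74 clusters. Where run, no ratio past 1.5-fold changed sign, and the cause of each shift below was not tested. With edgeR's TMM and DESeq2's size factors, Ly6d in the Rag1 clusters was 0.17 and 0.17 on the log2 scale and Ly6e in the Itm2a cluster -0.27 and -0.27. TMM gave 0.10 for Ly6a in the Ms4a4b cluster, where Ly6e was -0.40 with TMM, -0.36 with size factors and -0.32 without ribosomal protein and mitochondrial genes. As a mean over cells, Ly6a in the Itm2a cluster was -0.34 and Ly6c2 in the Ms4a4b cluster -0.65. Thinning gave -0.19 for Ly6a and -2.09 for Ly6c2 among Itm2a cells, and -0.65 for Ly6c2 among Ms4a4b cells. Ly6d in the Itm2a cluster was 0.56 at resolution 1.8 and 0.56 at resolution 2. In the Ms4a4b cluster Ly6d was 1.67 without the highest Scrublet scores. Leaving out cells with a gamma or delta chain UMI (Ly6a in the Itm2a cluster, -0.32) or with a Rag1 UMI (Ly6d in the Ms4a4b cluster, 1.64) was chosen after seeing the data. Ly6c1 in the Ms4a4b cluster stayed between 2.10 and 2.69 over 15 alternatives. Without the cell with most UMIs, Ly6c2 in the Itm2a cluster gave no ratio. No paired analysis was possible because each group has 1 library.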
